A study of Mus musculus with 3 samples.

Results

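Genes of the thioredoxin, protein disulfide isomerase (PDI) and peroxiredoxin superfamily were followed in mouse liver with and without TMX, a membrane protein of the endoplasmic reticulum (ER) that carries a thioredoxin domain and is encoded by Tmx1. The members were a list of 39 named genes, chosen by family and not by their values, though with earlier results of these data known. Of these, 38 had a row among the 16390 named genes of the deposited table, with 1 row each, and 36 had a value on all 3 arrays. Txnrd2 was not analysed here. Tmx4 had a value in untreated TMX-null liver alone and Qsox2 had none there. The list held 20 members of the ER, 11 of the cytosol and nucleus, 6 of mitochondria, and 2 sulfhydryl oxidases of the Golgi and secreted space. Of these, 19, 11, 5 and 1 had a value on all 3 arrays.

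All RNA came from livers of female C57BL/6 mice, and their ages are not stated in the labels. The 3 sample groups were TMX-/- liver (called TMX-null below) 24 h after intraperitoneal LPS/GalN, untreated TMX-null liver, and wild-type (WT) liver 24 h after LPS/GalN. Each was set on 1 array with 2 dyes against untreated WT liver. LPS/GalN was 3 ng bacterial lipopolysaccharide with 10 mg D-galactosamine, a combination used to provoke acute liver injury, since galactosamine sensitises hepatocytes to inflammatory signals. The labels say neither how many mice stand behind a channel nor which part of the gene the TMX-/- allele lacks.

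Each value below is a log2 ratio to untreated WT liver, or a difference of 2 such ratios, centred so that the median of the 10184 named genes measured on all 3 arrays is 0 on each array. A value of 1 or more is called 2-fold higher and a value of -1 or less 2-fold lower. Each group has 1 array, so nothing could be tested, and no value was set against the variation between mice. The untreated WT liver and the order of the dyes are shared by all 3 arrays. A gene on the same side of 0 on all 3 is thus no independent agreement. The only error at hand is the SD of a single probe, taken from 81 genes with 2 probes. It was 0.76 for treated TMX-null, 0.42 for untreated TMX-null and 0.42 for treated WT liver. For treated against untreated TMX-null liver it was 0.67, and for treated TMX-null against treated WT liver 0.59. The deposited ratios do not state their numerator. Sample over untreated WT is the likely direction, because Tmx1 then lies low in both TMX-null livers, and every direction below turns if it is wrong. The value of Tmx1 itself is therefore no independent result on direction.

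Proteins with a thioredoxin fold pass electrons between pairs of cysteines. In the ER, PDI enzymes form and rearrange disulfide bonds in newly made proteins and are reoxidised by the Ero1 oxidases and by peroxidases. In the cytosol and in mitochondria the flow runs the other way, and thioredoxin reductase keeps thioredoxin reduced, which in turn serves the peroxiredoxins that remove hydrogen peroxide. Hepatocytes secrete most plasma proteins and detoxify reactive compounds, so both systems are active in liver.

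Tmx1, a membrane-bound oxidoreductase that works with the lectin chaperone calnexin, stood at -3.88 in treated TMX-null, -2.96 in untreated TMX-null and 0.59 in treated WT liver. In untreated TMX-null liver its ratio ranked 1 from the lowest among 10184 genes, a size of 7.78-fold, and in treated TMX-null liver it ranked 23 from the lowest. The table holds no signal values, so neither the depth of these ratios nor the step of -0.92 between the TMX-null livers can be read as a level of Tmx1 RNA. Its close relatives did not follow it. Tmx2 stood at 0.01 in treated TMX-null, -0.11 in untreated TMX-null and 0.36 in treated WT liver. Tmx3 stood at -0.14 in treated TMX-null, -0.12 in untreated TMX-null and -0.07 in treated WT liver. Tmx4 had the single value of 0.16 in untreated TMX-null liver. All of these lay within the SD of a single probe of 0.

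**Figure D1:**
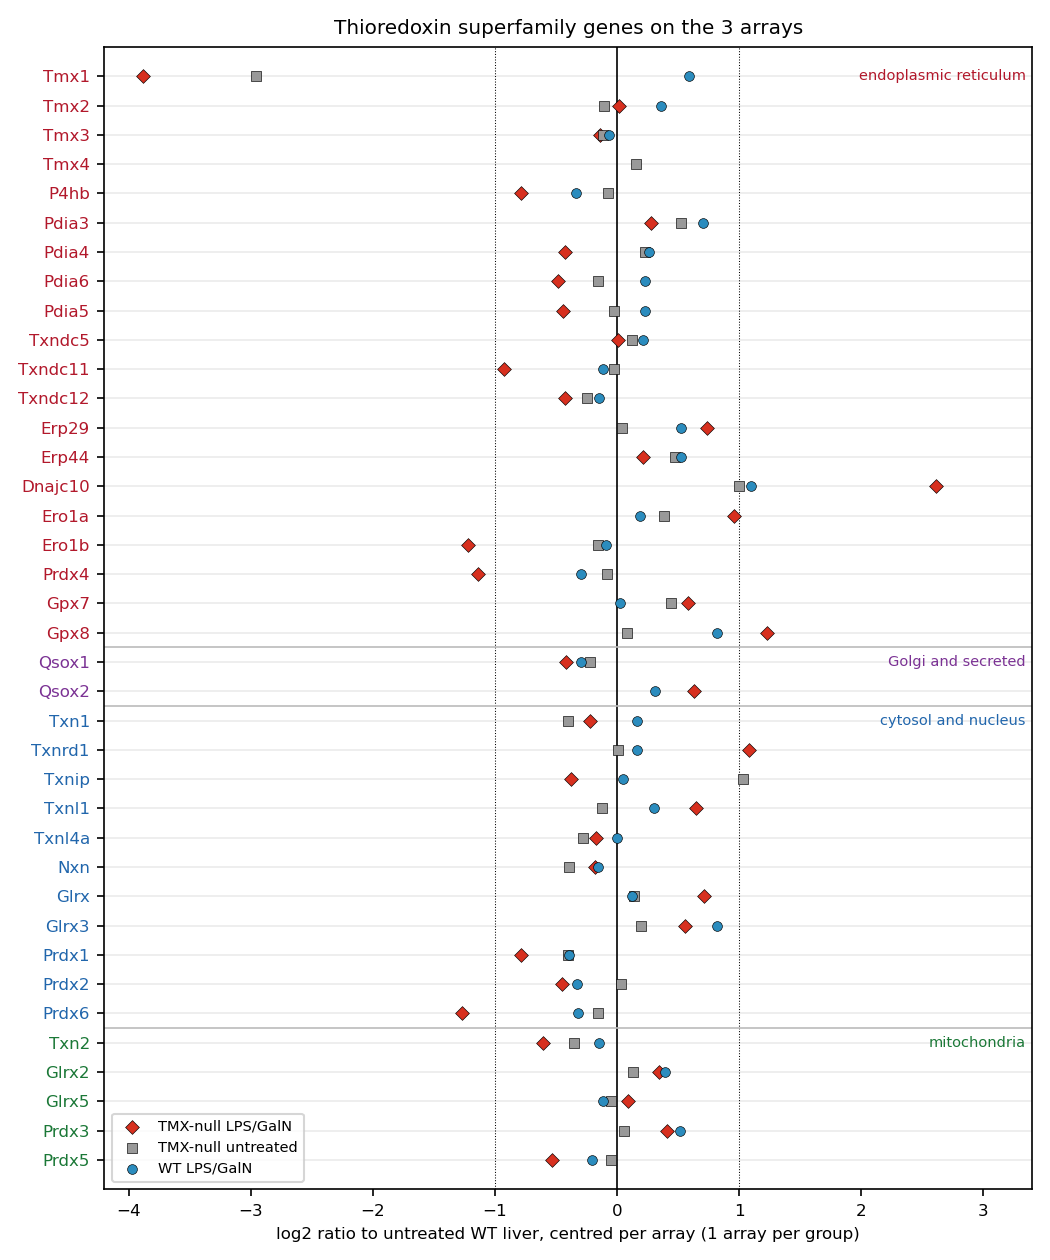
The log2 ratio to untreated WT liver (horizontal axis) of 38 members, 1 per line, grouped by compartment. Diamonds stand for TMX-null LPS/GalN, squares for TMX-null untreated and circles for WT LPS/GalN liver, with 1 array each, and dotted lines mark 2-fold. Tmx1 lies at -3.88 in treated and -2.96 in untreated TMX-null liver, Dnajc10 is farthest to the right at 2.62 in treated TMX-null liver, and most other members lie between the dotted lines.

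Few members were 2-fold different. In treated TMX-null liver set against untreated WT 7 of 36 were, or 19.4%, against 26.8% of all genes. Dnajc10, Gpx8 and Txnrd1 were higher there, as were 13.5% of all genes, and Tmx1, Ero1b, Prdx4 and Prdx6 lower, as were 13.3%. Untreated TMX-null liver had 2 of 36 (Tmx1 and Txnip), against 2.63% of all genes. In treated WT liver the count was 1 of 36 (Dnajc10), against 4.57% of all genes. Treated against untreated TMX-null liver gave 7 of 36, against 23.5% of all genes, with Dnajc10, Gpx8 and Txnrd1 higher and Ero1b, Prdx4, Prdx6 and Txnip lower. Of all genes, 11.4% were higher and 12.1% lower in that comparison. Treated TMX-null against treated WT liver gave 3 of 36, or 8.33%, against 20.3% of all genes. Dnajc10 was higher there, as were 9.63% of all genes, and Ero1b and Tmx1 lower, as were 10.6%. Apart from the targeted gene, the share of members past 2-fold was thus near or below that of all genes in each comparison. These counts follow the spread of the arrays, whose SD over all genes was 1.04 in treated TMX-null, 0.40 in untreated TMX-null and 0.48 in treated WT liver. With the arrays scaled to equal spread, 2 members were called in treated TMX-null liver against untreated WT, where 10.5% of all genes were. Against untreated TMX-null liver it was 2 members and 14% of all genes, and against treated WT liver 1 member and 9.74%.

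The 35 members other than Tmx1 had a median absolute log2 ratio of 0.48 in treated TMX-null, 0.15 in untreated TMX-null and 0.23 in treated WT liver, while for all genes it was 0.59 in treated TMX-null, 0.24 in untreated TMX-null and 0.28 in treated WT liver. In untreated TMX-null liver 30 of these 35 members (85.7%) lay within the SD of a single probe of 0, as did 75.1% of all genes. The 5 beyond it were Txnip (1.03), Dnajc10 (0.998), Pdia3 (0.53), Erp44 (0.47) and Gpx7 (0.44), all of them above 0. In a bulk sample fewer cells of a type and less RNA per cell cannot be told apart.

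The classical PDIs are the abundant disulfide isomerases of the ER lumen. P4hb, the founding member of the family, stood at -0.79 in treated TMX-null, -0.08 in untreated TMX-null and -0.33 in treated WT liver. Pdia3, which acts on glycoproteins bound to calnexin and calreticulin, stood at 0.28 in treated TMX-null, 0.53 in untreated TMX-null and 0.70 in treated WT liver. It was above 0 on all of them, and highest in treated WT liver. Pdia4 stood at -0.43 in treated TMX-null, 0.23 in untreated TMX-null and 0.26 in treated WT liver. Pdia6, a partner of the chaperone BiP, stood at -0.48 in treated TMX-null, -0.15 in untreated TMX-null and 0.23 in treated WT liver. In each of these 4 genes treated TMX-null liver was lowest of the 3 sample groups. Treated TMX-null over treated WT liver gave -0.45 for P4hb, -0.42 for Pdia3, -0.69 for Pdia4 and -0.71 for Pdia6, of which the last 2 exceeded the SD of a single probe (0.59). None was 2-fold lower.

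Dnajc10 was the member with the highest ratio in both treated livers. It encodes ERdj5, an ER reductase with a J domain that opens disulfide bonds of misfolded proteins before they are degraded. It stood at 2.62 in treated TMX-null, 0.998 in untreated TMX-null, just short of 2-fold, and 1.10 in treated WT liver. The first is 6.13-fold above untreated WT liver, rank 132 from the highest of all genes. All 3 livers were above untreated WT, and treated TMX-null liver was above the other 2. Treated over untreated TMX-null liver gave 1.62 and treated TMX-null over treated WT liver 1.52, but these differences depended on the scaling of the arrays. With equal spread of the arrays they were 0.04 and 0.16. A wide spread of the treated TMX-null array cannot be told apart from a wide response of that liver. The first 3 ratios share the untreated WT RNA.

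The other ER members with a thioredoxin fold ranged from -0.93 to 0.73 in treated TMX-null, from -0.25 to 0.47 in untreated TMX-null and from -0.15 to 0.52 in treated WT liver. Erp29, a chaperone of secretory proteins, stood at 0.73 in treated TMX-null, 0.04 in untreated TMX-null and 0.52 in treated WT liver. Both treated livers were above the untreated TMX-null liver. Erp44, which retains the Ero1 oxidases and other client proteins in the early secretory pathway, stood at 0.22 in treated TMX-null, 0.47 in untreated TMX-null and 0.52 in treated WT liver. Txndc11 stood at -0.93 in treated TMX-null, -0.02 in untreated TMX-null and -0.12 in treated WT liver, lowest in treated TMX-null liver. Pdia5 stood at -0.45 in treated TMX-null, -0.03 in untreated TMX-null and 0.23 in treated WT liver, Txndc5 at 0.01 in treated TMX-null, 0.13 in untreated TMX-null and 0.22 in treated WT liver, and Txndc12 at -0.43 in treated TMX-null, -0.25 in untreated TMX-null and -0.15 in treated WT liver. None of these 6 genes was 2-fold different in any comparison.

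Oxidases and peroxidases of the ER lay on both sides of 0 in treated TMX-null liver. Ero1a and Ero1b are the paired oxidases that feed disulfide bonds to PDI. Ero1a stood at 0.96 in treated TMX-null, 0.38 in untreated TMX-null and 0.19 in treated WT liver. Ero1b stood at -1.22 in treated TMX-null, -0.15 in untreated TMX-null and -0.09 in treated WT liver. The paralogues therefore lay on opposite sides of 0 in treated TMX-null liver, with Ero1b 2.33-fold below untreated WT. Treated TMX-null over treated WT liver gave 0.77 for Ero1a and -1.13 for Ero1b.

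Gpx8, a peroxidase anchored in the ER membrane, stood at 1.23 in treated TMX-null, 0.08 in untreated TMX-null and 0.82 in treated WT liver. Both treated livers were above the untreated TMX-null liver. Gpx7, a related peroxidase of the ER lumen, stood at 0.58 in treated TMX-null, 0.44 in untreated TMX-null and 0.03 in treated WT liver, so that both TMX-null livers were above treated WT. Prdx4, the peroxiredoxin of the ER, stood at -1.14 in treated TMX-null, -0.08 in untreated TMX-null and -0.30 in treated WT liver, lowest in treated TMX-null liver. With equal spread of the arrays the ratios to untreated WT in treated TMX-null liver became -0.75 for Ero1b, -0.70 for Prdx4 and 0.76 for Gpx8, none of them 2-fold.

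Outside the ER, Qsox1, a secreted enzyme that forms disulfide bonds, stood at -0.42 in treated TMX-null, -0.22 in untreated TMX-null and -0.29 in treated WT liver. Its relative Qsox2 stood at 0.63 in treated TMX-null and 0.31 in treated WT liver.

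Promoter sequences are shown for the members with an exact match to the ER stress response element, and for Dnajc10, the member with the highest ratio. Txnrd1 and Prdx1 are shown as members of the thioredoxin cycle with a match to the antioxidant response element core. All sequences are from RefSeq, build GRCm38.p6, and give the 250 bases before the annotated start, 5′ to 3′, with matches in capitals. The motifs searched on both strands were the ER stress response element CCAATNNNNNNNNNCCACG, the antioxidant response element core TGACNNNGC, the C/EBP-ATF response element TGATGNAA and the E-box CACGTG.
Ero1b, chr13:12565633-12565882, + strand: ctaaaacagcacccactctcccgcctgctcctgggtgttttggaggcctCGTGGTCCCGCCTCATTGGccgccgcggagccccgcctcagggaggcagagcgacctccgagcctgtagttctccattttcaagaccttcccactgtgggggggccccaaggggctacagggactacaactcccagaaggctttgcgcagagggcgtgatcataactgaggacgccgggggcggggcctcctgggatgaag
Pdia6, chr12:17266339-17266588, + strand: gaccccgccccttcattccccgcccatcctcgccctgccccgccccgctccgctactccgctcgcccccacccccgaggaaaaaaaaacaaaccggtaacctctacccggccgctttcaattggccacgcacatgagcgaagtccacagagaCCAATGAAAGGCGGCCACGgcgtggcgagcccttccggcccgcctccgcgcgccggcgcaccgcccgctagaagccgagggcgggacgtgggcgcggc
Txnrd1, chr10:82858956-82859205, + strand: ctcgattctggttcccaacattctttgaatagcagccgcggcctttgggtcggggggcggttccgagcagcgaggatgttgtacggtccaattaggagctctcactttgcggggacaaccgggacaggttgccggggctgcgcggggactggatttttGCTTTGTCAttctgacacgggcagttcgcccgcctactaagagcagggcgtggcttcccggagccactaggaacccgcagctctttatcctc
Prdx1, chr4:116685349-116685598, + strand: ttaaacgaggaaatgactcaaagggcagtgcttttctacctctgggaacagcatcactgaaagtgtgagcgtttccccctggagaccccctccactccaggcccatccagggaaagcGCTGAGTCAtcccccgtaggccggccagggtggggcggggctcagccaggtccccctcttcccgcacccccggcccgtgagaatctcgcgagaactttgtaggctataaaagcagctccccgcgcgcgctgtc
Dnajc10, chr2:80315216-80315465, + strand: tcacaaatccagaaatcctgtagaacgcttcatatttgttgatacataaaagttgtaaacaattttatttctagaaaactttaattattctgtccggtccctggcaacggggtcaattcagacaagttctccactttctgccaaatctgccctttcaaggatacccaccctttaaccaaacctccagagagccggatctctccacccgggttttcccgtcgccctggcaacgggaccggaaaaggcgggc
RefSeq windows were at hand for 34 of the 39 members, 45 windows in all. The ER stress response element was found in 37 of 32851 windows of all genes (0.113%), among them those of Ero1b, on the reverse strand 201 to 183 bases before the start, and Pdia6, 98 to 80 bases before it. In treated TMX-null liver these 2 genes stood at -1.22 and -0.48. The antioxidant response element core was found in 10.2% of all windows and in 6 of 45 member windows, those of Txnrd1, Prdx1, Pdia3, Tmx4, Txndc5 and Txndc11. The Txnrd1 window shown is the one with this match. Its other windows, and those of Txn1 and Prdx2 of the same cycle, held none of the 4 motifs. In treated TMX-null liver Txnrd1 stood at 1.08 and Prdx1 at -0.79. The E-box was found in 6.02% of all windows and in those of Glrx2, Prdx4 and Qsox2. The C/EBP-ATF response element was found in 3.45% of all windows and in 1 of Txndc5. The Dnajc10 window held none of these motifs. The 4 motifs overlap each other in none of the sequences shown, and a match describes letters, not binding.

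In the cytosolic thioredoxin system the 3 core genes went separate ways. Txn1, cytosolic thioredoxin, stood at -0.22 in treated TMX-null, -0.40 in untreated TMX-null and 0.16 in treated WT liver, all within the SD of a single probe. Txnrd1, the selenoenzyme that reduces it and a known target of the antioxidant factor NRF2, stood at 1.08 in treated TMX-null, 0.00 in untreated TMX-null and 0.17 in treated WT liver. It was thus near untreated WT liver in 2 of the 3 groups and 2.12-fold above it in treated TMX-null liver. Treated TMX-null over treated WT liver gave 0.92, below 2-fold. With equal spread of the arrays Txnrd1 was no longer 2-fold higher in treated TMX-null liver.

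Txnip, which binds thioredoxin and blocks it and whose transcription responds to glucose, showed another order. It stood at -0.38 in treated TMX-null, 1.03 in untreated TMX-null and 0.05 in treated WT liver. Untreated TMX-null liver was the only group above 2-fold, at 2.05-fold above untreated WT. Treated over untreated TMX-null liver gave -1.41, the lowest value of any member in that comparison. The response to LPS/GalN in TMX-null minus that in WT liver was -1.46 for Txnip and -1.51 for Tmx1, the only members past 2-fold in that difference, where 21.4% of all genes were and 11.6% were lower. With equal spread of the arrays Txnip stayed 2-fold lower in it.

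Of the other cytosolic and nuclear members, Txnl1, a thioredoxin bound to the proteasome, stood at 0.64 in treated TMX-null, -0.13 in untreated TMX-null and 0.30 in treated WT liver. Nxn, nucleoredoxin, stood at -0.18 in treated TMX-null, -0.39 in untreated TMX-null and -0.15 in treated WT liver, and the spliceosome protein gene Txnl4a at -0.17 in treated TMX-null, -0.28 in untreated TMX-null and 0.00 in treated WT liver. Glutaredoxins use glutathione in place of thioredoxin reductase. The cytosolic Glrx stood at 0.72 in treated TMX-null, 0.14 in untreated TMX-null and 0.12 in treated WT liver, highest in treated TMX-null liver, and Glrx3, which handles iron-sulfur clusters, at 0.56 in treated TMX-null, 0.19 in untreated TMX-null and 0.82 in treated WT liver. All 4 glutaredoxins were above 0 in treated TMX-null liver, between 0.09 (Glrx5) and 0.72, and none was 2-fold higher.

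Of the 6 peroxiredoxins, which remove peroxide, 5 were below 0 in treated TMX-null, 4 in untreated TMX-null and 5 in treated WT liver. The centring puts 50% of all genes below 0 on each array. Only Prdx4 and Prdx6 were 2-fold lower, both in treated TMX-null liver, and all 6 were within the SD of a single probe of 0 in untreated TMX-null liver. Prdx1 stood at -0.79 in treated TMX-null, -0.40 in untreated TMX-null and -0.39 in treated WT liver, and Prdx2 at -0.45 in treated TMX-null, 0.03 in untreated TMX-null and -0.33 in treated WT liver. Prdx6, which is reduced with glutathione, stood at -1.27 in treated TMX-null, -0.15 in untreated TMX-null and -0.32 in treated WT liver, a size of 2.41-fold in treated TMX-null liver. The mitochondrial Prdx5 stood at -0.53 in treated TMX-null, -0.05 in untreated TMX-null and -0.21 in treated WT liver. Prdx3, the other mitochondrial peroxiredoxin, was above 0 in all 3 livers, at 0.41 in treated TMX-null, 0.06 in untreated TMX-null and 0.51 in treated WT liver. Treated TMX-null over treated WT liver was below 0 for all 6 peroxiredoxins, Prdx4 included, with a median of -0.36 and a range from -0.95 (Prdx6) to -0.10 (Prdx3), and none was 2-fold lower. Of all members 27 of 36 (75%) were below 0 in that comparison, and 49.5% of all genes. With equal spread of the arrays 4 of 6 peroxiredoxins were below 0, with Prdx1 at 0.03 and Prdx2 at 0.16. With that scaling Prdx6 stood at -0.79 in treated TMX-null liver against untreated WT and was no longer 2-fold lower. In the RefSeq table Prdx5 and Prdx6 are each also listed as an older name of the other, so the identity of these 2 probes rests on the annotation's symbols.

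The mitochondrial members had the narrowest range of the 3 large compartments. Txn2, mitochondrial thioredoxin, stood at -0.61 in treated TMX-null, -0.35 in untreated TMX-null and -0.15 in treated WT liver. Glrx2 stood at 0.35 in treated TMX-null, 0.13 in untreated TMX-null and 0.39 in treated WT liver, and Glrx5, needed for iron-sulfur clusters, at 0.09 in treated TMX-null, -0.05 in untreated TMX-null and -0.12 in treated WT liver. The 5 measured mitochondrial members ranged from -0.61 to 0.41 in treated TMX-null liver, where cytosolic and nuclear members ranged from -1.27 to 1.08 and ER members without Tmx1 from -1.22 to 2.62. No mitochondrial member was 2-fold different in any comparison, but with 5 genes the range has fewer chances to be wide.

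By compartment, the medians of ER, of cytosolic and nuclear, and of mitochondrial members were compared in that order. Treated TMX-null over treated WT liver gave -0.35, -0.17 and -0.10. Without Tmx1 the ER median there was -0.33, with 13 of 18 below 0, against 49.5% of all genes. Treated over untreated TMX-null liver gave -0.25, 0.19 and 0.14, and 13 of 19 ER members were below 0, against 50.2% of all genes. Treated TMX-null liver against untreated WT gave -0.14, -0.18 and 0.09, and untreated TMX-null liver against untreated WT -0.02, -0.13 and -0.05. Treated WT liver against untreated WT gave 0.23, 0.05 and -0.12, and 13 of 19 ER members were above 0, against 50% of all genes. Members of each of these compartments lay on both sides of 0, and the differences between compartments were not tested. With means in place of medians 4 of these 15 values changed sign. In treated WT liver the mitochondrial mean was 0.09 and the cytosolic and nuclear mean 0.04, which turns their order.

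**Figure D2:**
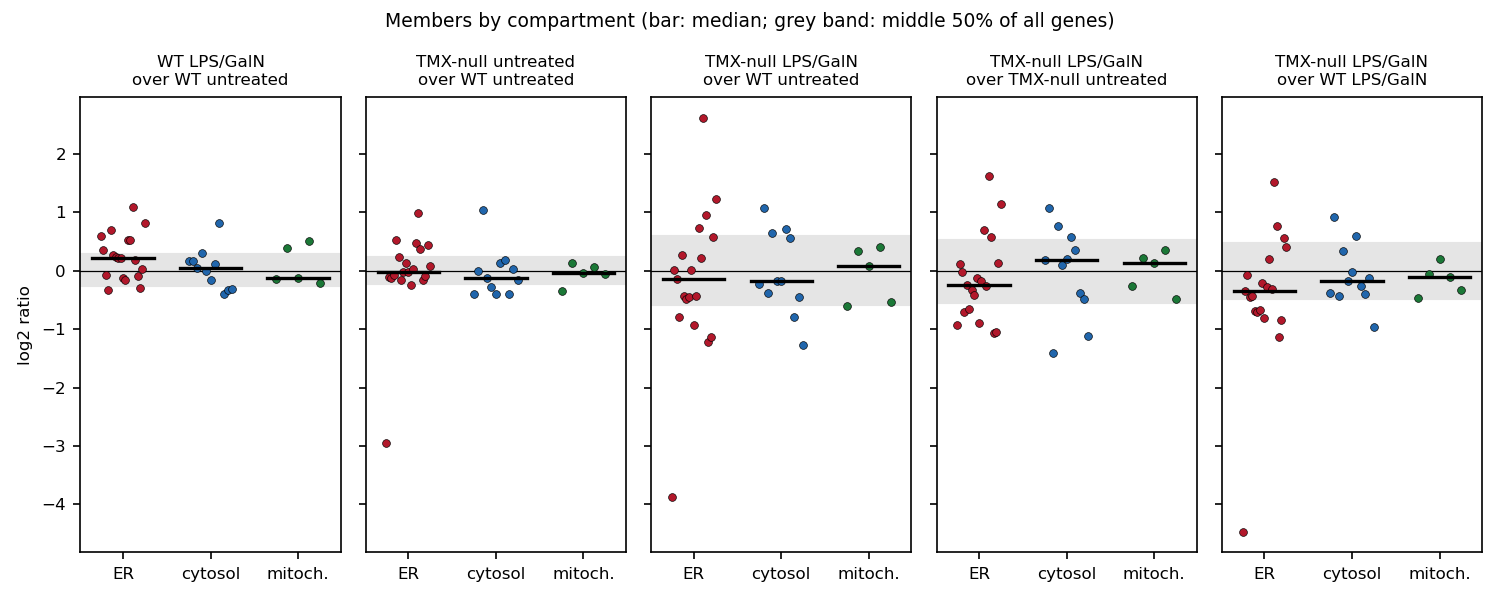
The log2 ratio (vertical axis) of the 19 ER, 11 cytosolic and nuclear and 5 mitochondrial members with a value on all 3 arrays, in 5 comparisons. Each dot is a gene, bars are medians, and the grey band runs from the lower to the upper quartile of all 10184 genes. The compartment medians lie between -0.35 and 0.23, and the mitochondrial members span the narrowest range.

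The responses of the genotypes to LPS/GalN were set side by side, treated against untreated TMX-null liver and treated against untreated WT liver, which use different arrays. Across the 35 members other than Tmx1 they correlated with r = 0.63, and 26 of 35 (74.3%) had the same sign. Across all 10184 genes r was 0.37, and 63.4% had the same sign. Genes are not independent replicates, and each response rests on 1 array or 1 pair of arrays. Dnajc10 (1.62 in TMX-null, 1.10 in WT) and Gpx8 (1.15 and 0.82) had the highest responses in both. With equal spread of the arrays their TMX-null response minus WT response changed sign. It went from 0.52 to -1.42 for Dnajc10 and from 0.32 to -0.46 for Gpx8. The correlation was not computed with that scaling. Prdx4 (-1.05 and -0.30), Prdx6 (-1.12 and -0.32) and P4hb (-0.71 and -0.33) were below 0 in both. Pdia3 stood at -0.25 in TMX-null and 0.70 in WT, Pdia4 at -0.66 and 0.26, and Erp44 at -0.26 and 0.52. For the 18 ER members without Tmx1, the TMX-null response minus the WT response had a median of -0.35. Of these, 12 of 18 were below 0, against 50% of all genes. None was 2-fold, against 21.4% of all genes.

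**Figure D3:**
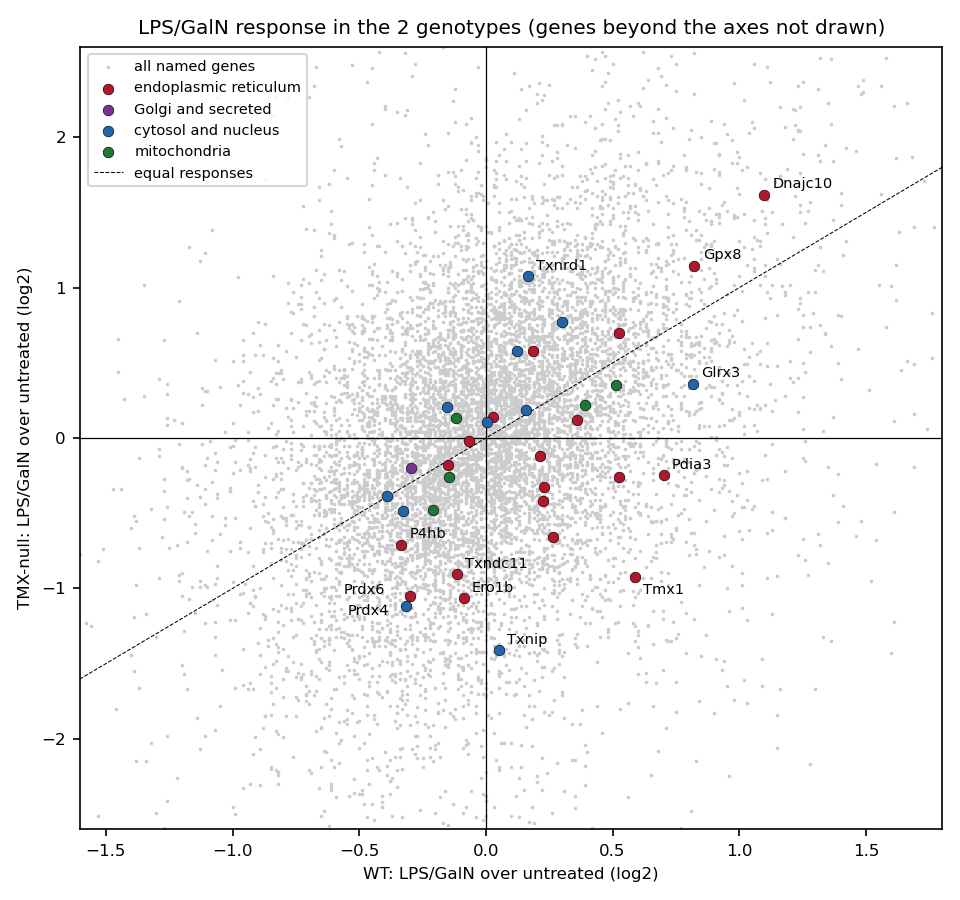
The LPS/GalN response of each gene in TMX-null liver (vertical axis, log2) against that in WT liver (horizontal axis, log2). Small grey dots are all named genes within the axes and large dots the 36 members, coloured by compartment, with the dashed line where responses are equal. Dnajc10 (1.62 and 1.10) and Gpx8 (1.15 and 0.82) lie at the upper right, while Txnip (-1.41 and 0.05) and Pdia3 (-0.25 and 0.70) lie below the line.

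Companion lists place these values among related genes. Of 34 listed ER chaperone and unfolded protein response genes 30 were measured. Their median was -0.15 in treated TMX-null, 0.21 in untreated TMX-null and 0.29 in treated WT liver. In treated TMX-null liver 1 of 30 was 2-fold higher and 3 were lower, against 13.5% and 13.3% of all genes. None was past 2-fold in untreated TMX-null liver, where 1.8% of all genes were higher and 0.835% lower. In treated WT liver 1 of 30 was 2-fold higher and none lower, against 2.81% and 1.76% of all genes. Creld2, an ER stress gene, stood at 2.01 in treated TMX-null, 0.79 in untreated TMX-null and 1.42 in treated WT liver. Hspa5, which encodes BiP, the partner of ERdj5, stood at 0.91 in treated TMX-null, 0.36 in untreated TMX-null and 0.80 in treated WT liver. Herpud1 and Sel1l, which belong to ER-associated degradation like Dnajc10, stood at -1.41 and -1.78 in treated TMX-null liver, against 0.90 and 0.12 in treated WT liver. Treated TMX-null over treated WT liver gave a median of -0.21, with 0 of 30 2-fold higher and 2 lower. Of all genes, 9.63% were higher and 10.6% lower there.

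Of 26 listed NRF2 targets 22 were measured. In treated TMX-null liver 7 of 22 were 2-fold higher and 5 lower, against 13.5% and 13.3% of all named genes. In untreated TMX-null liver it was 0 and 0, against 1.8% and 0.835%, and in treated WT liver 3 and 1, against 2.81% and 1.76%. Hmox1, haem oxygenase, stood at 3.31 in treated TMX-null and 0.16 in treated WT liver. Srxn1, sulfiredoxin, which restores overoxidised peroxiredoxins, stood at 2.44 in treated TMX-null, -0.56 in untreated TMX-null and -0.46 in treated WT liver. It is also in the list of other genes with a thioredoxin fold or serving one, of which 12 were measured. In treated TMX-null liver Srxn1 was the only gene of that list 2-fold higher, and 2 were lower, Pdilt (-1.24) and Txndc15 (-1.17), against 13.5% and 13.3% of all named genes. Gsta3, a glutathione transferase, stood at -3.26 in treated TMX-null and -0.19 in treated WT liver. The NRF2 list therefore held members on both sides, as the thioredoxin system did with Txnrd1 (1.08) and Prdx1 (-0.79). Of 17 glutathione and peroxide enzymes outside the family 11 were measured, and in treated TMX-null liver 3 were 2-fold higher and 3 lower, against the same shares of all genes. Gpx3 stood at 2.00 and catalase, Cat, at -2.34 there, against 0.53 and -0.27 in treated WT liver.

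**Figure D4:**
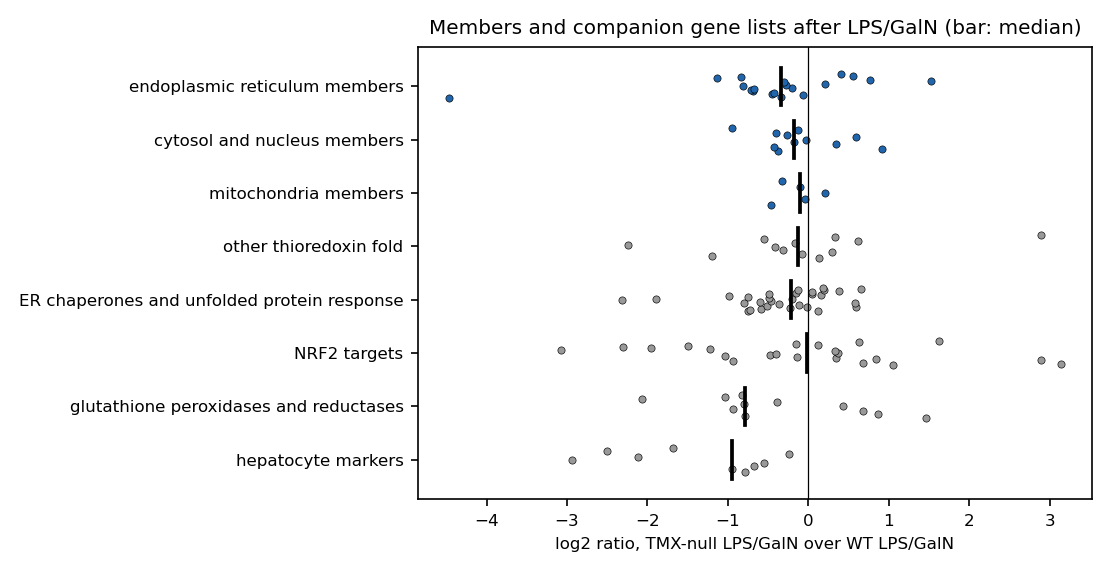
The log2 ratio of treated TMX-null over treated WT liver (horizontal axis) for members by compartment and for companion gene lists, 1 dot per gene, with bars at the medians. The family's medians lie between -0.35 and -0.10. Those of the companion lists lie at -0.12 for other thioredoxin fold genes, -0.21 for ER chaperones and -0.01 for NRF2 targets. The glutathione and peroxide enzymes lie at -0.79 and hepatocyte markers at -0.96.

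Markers of cell types moved on the same arrays. Of 10 hepatocyte markers 9 were measured, with a median of -1.84 in treated TMX-null (range -4.48 to -0.15), -0.29 in untreated TMX-null (-0.96 to 0.26) and -0.24 in treated WT liver (-1.54 to 0.68). Of these, 6 of 9 were 2-fold lower in treated TMX-null, 0 in untreated TMX-null and 3 in treated WT liver. Of all genes, 13.3%, 0.835% and 1.76% were lower in this order of groups. Of 13 macrophage markers 12 were measured, with medians of 1.36 in treated TMX-null, 0.79 in untreated TMX-null and 1.19 in treated WT liver. In the same order 9, 3 and 9 of 12 were 2-fold higher, against 13.5%, 1.8% and 2.81% of all genes. Monocyte and neutrophil markers, 5 of 9 measured, had medians of 2.66 in treated TMX-null, -0.18 in untreated TMX-null and -0.30 in treated WT liver. They ranged from -2.50 to 4.45 in treated TMX-null liver. The median in treated WT liver also stands for genes on both sides of 0. There 2 of 5 were above 0, S100a9, which was 2-fold higher, and S100a8 at 0.82, while Ly6g was lowest at -0.89. Stellate cell markers, 5 of 8 measured, had medians of 1.18 in treated TMX-null, 0.13 in untreated TMX-null and 0.48 in treated WT liver. T and NK cell markers, 4 of 9 measured, had medians of 0.75 in treated TMX-null, 0.71 in untreated TMX-null and 0.63 in treated WT liver, and B and plasma cell markers, 4 of 7 measured, 0.20 in treated TMX-null, -0.29 in untreated TMX-null and 0.14 in treated WT liver. Endothelium markers, 4 of 6 measured, had medians of 0.56 in treated TMX-null, 0.02 in untreated TMX-null and -0.01 in treated WT liver, and cholangiocyte markers, 4 of 5 measured, 0.60 in treated TMX-null, -0.25 in untreated TMX-null and -0.14 in treated WT liver. Some of these medians stand for genes on both sides of 0. In treated TMX-null liver stellate cell markers ranged from -0.35 to 3.31 and endothelium markers from -0.60 to 1.72. B and plasma cell markers ranged from -1.47 to 1.66 there. The part of the marker shifts in the members' values was not tested, and the table has no levels from which a marker could be called absent.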

How the data were processed

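Liver RNA was measured on 3 arrays with 2 channels, Cy3 for the sample and Cy5 for untreated WT liver, per the labels. The deposited values are log ratios, taken here as log2. For their base, numerator and normalization, and for why cells are blank, the sources used here state nothing. If the logarithm were natural, each fold would be raised to the power 1.44. Each deposited column had a median within 1.14e-04 of 0, so the arrays had been centred. Of 23473 rows, 16631 had 1 symbol, 0 several and 6842 none in the platform annotation. Symbols were updated through RefSeq synonyms (GRCm38.p6), and 12 member rows carried an older symbol, such as Txndc1 for Tmx1. Probes of a gene were averaged and each array was centred on its median over 10184 complete genes. Python 3.11.15, pandas 2.3.3 and numpy 2.4.6 were used, and the centring, counting and motif steps were tested on simulated data. Members, compartments, companion lists and the rule for named genes (every member accounted for, at most the 2 highest and 2 lowest of a companion list in a comparison) were chosen with earlier results of these data known. Hspa5 was named beside them for its known role, after its values were seen. The table has no signal values, and precision is limited by the number of arrays.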

Additional observations from a re-analysis of the deposited data

Results flagged for a closer look

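Tmx1 was looked at again because its response to LPS/GalN had opposite signs in the genotypes, each beyond the SD of a single probe. It was -0.92 in TMX-null liver and 0.59 in WT liver. The difference was not tested. With the arrays scaled to equal spread the responses were 2.29 in TMX-null and 0.78 in WT liver, and the signs were no longer opposite. The table gives no signal by which Tmx1 could be placed above or below background in TMX-null liver.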

How the results depend on the processing

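No paired analysis was possible because each group has 1 array, and for the same reason no array could be left out. Using the deposited values without further centring, or every gene with a value on the arrays compared, kept each count of members past 2-fold within 1.5 times. Taking the first listed probe kept them too, but each member had 1 row. That setting could therefore act on members only through the centring and is no check of their counts. All 15 compartment medians moved by less than the error of a median of single probes under these settings where run, with means in place of medians, and with equal spread. Yet 4 changed sign with means: the mitochondrial value was -0.06 in treated TMX-null liver against untreated WT (median 0.09), -0.01 against untreated TMX-null (0.14), and 0.09 in treated WT against untreated WT (-0.12), and the cytosolic and nuclear value was -0.01 in treated against untreated TMX-null liver (0.19). The ER median of untreated TMX-null liver was 0.01 over every gene on the arrays compared (-0.02). Equal spread of the arrays changed the counts. It gave 2 members past 2-fold in treated TMX-null against untreated WT liver (7 without scaling), 2 against untreated TMX-null (7), 1 against treated WT (3), 3 in treated WT against untreated WT (1), and 6 for the difference of responses (2). All genes past 2-fold in these comparisons were then 10.5%, 14%, 9.74%, 10.1% and 23.2% (26.8%, 23.5%, 20.3%, 4.57% and 21.4% without scaling). Of 216 single values, 27 changed sign, most of them below 2-fold with and without scaling, 13 dropped below 2-fold and 6 passed it with their sign kept. The sign changes that involved a 2-fold value were 3: the response of Tmx1 in TMX-null liver (2.29 with scaling, -0.92 without), and the difference of responses of Tmx1 (1.51, -1.51 without) and of Dnajc10 (-1.42, 0.52 without). The scaling shrinks the treated TMX-null array and widens the others. A threshold of 1.5-fold gave 15 members in treated TMX-null against untreated WT liver, 13 against untreated TMX-null, 12 against treated WT, and 5 in treated WT against untreated WT, where 50.3%, 46.8%, 42.2% and 18% of all genes passed. Leaving out Tmx1, chosen after seeing the data, gave 1 member in untreated TMX-null liver and 1 for the difference of responses.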
